A study of Mus musculus with 4 samples.

Results

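Immune cells from the tumour-bearing brains of IFNaR-/- mice given anti-PD1 and sorted on day 25 were compared with those of IFNaR-/- mice left untreated and sorted on day 20. The comparison used 2 of the series' 4 single-cell RNA libraries, chosen by their titles. It kept 8476 barcodes of anti-PD1 KO mice and 2810 of untreated KO mice, 11286 of the 26014 kept in the series, and the 30406 genes whose Ensembl identifier is in both feature lists. IFNaR-/- mice (KO) lack the receptor for type I interferons, and the remaining libraries of the series hold WT mice under the same treatments. All mice carried GL261, a mouse glioma line injected into the brain. Live CD45.2+ cells, that is, cells of blood origin and microglia, were pooled and sorted. The anti-PD1 KO mice had received 200 ug of an antibody against the T cell checkpoint receptor PD-1 on days 7, 11, 15 and 19, and their CD3+ and CD3- cells were mixed 1:1 at the sort. The untreated KO mice had received nothing, and the labels name no control antibody and no mixing for them. The number of mice in a pool, the deleted part of the receptor gene and the antibody clone are not given in the sources used here. Both groups share the knockout. A step of the label's protocol speaks of lung, whereas the tissue label is brain, and markers of microglia, which live in the brain, were detected in both libraries.

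Each group was 1 library, so no spread between mice could be measured and no test was made. Treatment, day of sort, mixing, the version of the counting software and the properties of the libraries changed together and cannot be told apart here. Every value below therefore describes a pair of libraries. Levels are UMIs (counted RNA molecules) summed over the cells of a lineage and scaled to a common total for each lineage as CPM, with all the lineage's genes adding up to 1000000, with exact 95% Poisson intervals where shown. Ratios are anti-PD1 KO over untreated KO on a log2 scale, with 0.5 counts added to each sum. A gene was called higher or lower when it had at least 50 UMIs over both libraries and differed at least 2-fold. Intervals cover counting error only.

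PD-1 is an inhibitory receptor that activated T cells place on their surface, and its ligands PD-L1 and PD-L2 are made by tumour and myeloid cells. Blocking it is known to release T cells that have become exhausted, a state of lasting antigen exposure marked by the factor TOX and by several inhibitory receptors at the same time. Interferon gamma from such T cells acts on microglia and macrophages through its own receptor, which the knockout leaves in place, and raises antigen presentation, guanylate-binding proteins and the chemokine CXCL9. In the brain, microglia are the resident macrophages, while monocytes enter from blood and become tumour macrophages.

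The libraries differed in several measured properties besides treatment, although the labels name the same single-cell kit for all of them. Median UMIs per kept cell were 5152 in anti-PD1 KO and 9528.5 in untreated KO, and total UMIs were 54559749 and 32410040 in the same order. The mitochondrial limit of 10% was passed by 3.29% of anti-PD1 KO barcodes and 24.2% of untreated KO barcodes. Variable segments of the T cell receptor gave 8.52 UMIs per 100 of the constant segments in anti-PD1 KO T cells, against 1.60 in untreated KO T cells, and what sets this ratio was not tested. No barcode sequence was shared by the 2 KO libraries, whereas anti-PD1 KO shared 95 with anti-PD1 WT, 1.08% of the smaller library. Untreated KO shared 3 with untreated WT. How many barcodes would be shared by chance was not worked out, so these counts do not show mixing between libraries. Genes with long introns stood higher in anti-PD1 KO in every lineage: the median log2 ratio of genes with more than 100 kb of intron was 1.18 in CD8 T cells, 0.96 in CD4 T cells, 0.58 in microglia and 0.64 in monocytes and macrophages. Genes with under 1 kb of intron had medians of -0.35, -0.19, -0.30 and -0.54 in the same lineages. For named genes with more than 100 kb of intron, or with none in the annotation, the ratio left after a line fitted on intron length was taken off is given as well. In CD8 T cells and macrophages that line took more off genes with no intron than the medians of genes with under 1 kb. Values beside the line may therefore be overcorrected for genes without introns. As a check of the genotype, Isg15, an interferon-induced ubiquitin-like protein, stood at 57.3 CPM in anti-PD1 KO and 92.1 CPM in untreated KO, and at 1033 and 964 CPM in anti-PD1 and untreated WT mice. Irf7, a factor induced by type I interferon, stood at 4.15 and 19.2 CPM in the KO libraries and at 405 and 357 CPM in the WT libraries. Ifnar1 itself gave 147 CPM in anti-PD1 KO and 129 CPM in untreated KO, so its RNA was still counted, and RNA outside the deleted part does not check the knockout.

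Cells were assigned to lineages by raw UMIs of fixed markers, and a barcode that met several gates was left out. In anti-PD1 KO 50.5% of kept barcodes met exactly 1 gate, against 63.6% in untreated KO. T cells with markers of myeloid cells, which no gate accepted, were 4.08% and 3.24% of barcodes in that order. The gates gave 706 T cells in anti-PD1 KO and 621 in untreated KO, of which 420 and 366 were CD8 T cells, 127 and 118 conventional CD4 T cells and 42 and 46 regulatory T cells. Microglia numbered 1167 in anti-PD1 KO and 143 in untreated KO, and monocytes and macrophages 1952 and 468. T cells were 8.33% of kept barcodes in anti-PD1 KO although CD3+ and CD3- cells had been mixed in equal parts, and 22.1% in untreated KO, so the share of T cells among all cells was not read.

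Within the T cells, the makeup hardly differed. CD8 T cells were 59.5% of T cells in anti-PD1 KO (95% binomial interval 55.8 to 63.1) and 58.9% in untreated KO (55.0 to 62.8). Conventional CD4 T cells made up 18.0% and 19.0%, and regulatory T cells 5.95% and 7.41%, in anti-PD1 and untreated KO mice, with overlapping intervals. Among microglia plus monocytes and macrophages, microglia were 37.4% in anti-PD1 KO (35.7 to 39.1) and 23.4% in untreated KO (20.1 to 27.0), and these intervals do not overlap. With every cell thinned to 2000 UMIs the shares were 57.3% and 36.2%, so their size depended on depth while their order held. Macrophages rich in C1q, the complement starter that mature tissue macrophages make, were 86.1% of the monocyte and macrophage gate in anti-PD1 KO and 57.5% in untreated KO, while C1q-poor cells were 8.45% and 36.3%. C1q-poor cells were thus a smaller part of that gate in anti-PD1 KO. They also held neutrophil markers, at 61.9 CPM in anti-PD1 KO and 434 CPM in untreated KO, and dendritic markers, at 30.3 and 195 CPM. The C1q limit alone therefore does not mark monocytes. After thinning, C1qa was in 21.7% of anti-PD1 KO and 2.81% of untreated KO CD8 T cells. The part of carried C1q RNA and of depth in these shares was not tested. Natural killer cells, gated on Ncr1, Klrb1c and Klra8 with no UMI of Csf1r, Fcgr1 or Adgre1, numbered 0 in anti-PD1 KO and 51 in untreated KO. A count of 0 among 8476 cells allows a share of up to 0.0354%. Basophils or mast cells were likewise 0 against 39, and plasmacytoid dendritic cells 8 against 56. The mixing at the sort, the libraries' properties and the macrophage RNA carried in T cell barcodes, described below, differed along with these counts. Their part was not tested. In the WT pair natural killer cells were 0 after anti-PD1 and 218 untreated. Basophils or mast cells were 1 and 65 there, and plasmacytoid dendritic cells 1 and 46. The gates for type 1 dendritic cells and neutrophils were not borne out by their markers in anti-PD1 KO. Xcr1, the receptor that defines those dendritic cells, was at 22.8 CPM in anti-PD1 KO and 566 CPM in untreated KO, and S100a8, a granule protein of neutrophils, at 106 and 4257 CPM, so these lineages were not compared.

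CD8 T cells of anti-PD1 KO mice had more RNA of exhaustion-linked genes and less of granzymes and of cell division genes than those of untreated KO mice. Of 8218 genes measured in CD8 T cells, 14.1% were called higher and 8.57% lower in anti-PD1 KO, and the median log2 ratio of all of them was 0.04. Higher genes were 62.2% of those called, and 52.0% when the libraries were scaled with TMM factors, which moved the median of all genes by -0.13. Of 24 measured checkpoint and exhaustion genes, 7 were called higher and 1 lower, with a median log2 ratio of 0.62. Of 26 cytotoxic genes, 3 were called higher and 7 lower, with a median of -0.39. Of 40 cell cycle genes, none was called higher and 34 were called lower, with a median of -1.65.

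The largest ratio among the checkpoint genes was that of Tigit, an inhibitory receptor for ligands of the nectin family. Tigit stood at 161 CPM in anti-PD1 KO (142 to 181) and 4.34 CPM in untreated KO (2.57 to 6.86), a log2 ratio of 5.17. It was low in CD8 T cells of untreated WT mice too, so for Tigit treatment and the libraries' properties cannot be told apart. Tox, which encodes the factor that holds the exhausted state, stood at 467 CPM and 32.3 CPM, a log2 ratio of 3.85. Its introns span 298 kb, and 3.16 was left after the intron line was taken off. Cd101, an inhibitory surface protein of terminally exhausted cells, was at 40.4 CPM in anti-PD1 KO and 5.55 CPM in untreated KO. All of these lay far outside the counting intervals. Pdcd1, the gene of PD-1 itself, was at 500.5 CPM in anti-PD1 KO (467 to 536) and 253 CPM in untreated KO (238 to 269). Its log2 ratio of 0.98 was just short of the 2-fold call. Lag3, a receptor for MHC class II, had 453 and 289 CPM, and Ctla4, which competes for the CD80 and CD86 ligands, 543 and 334 CPM. Havcr2, the gene of TIM-3, went the other way with 138.5 CPM in anti-PD1 KO and 176 CPM in untreated KO, and Cd160, a receptor of cytotoxic cells, was called lower with 17.5 and 72.9 CPM. The inhibitory receptors thus did not move as a block.

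The share of cells with RNA of these genes showed the same order once depth was made equal. After every cell was thinned to 2000 UMIs, which left 374 of 420 anti-PD1 KO and 356 of 366 untreated KO CD8 T cells, Tigit was found in 25.1% of anti-PD1 KO cells (20.8 to 29.9) and 1.40% of untreated KO cells (0.458 to 3.25). Tox was found in 39.0% and 5.34%, and Pdcd1 in 59.6% and 37.6%. Before thinning the shares for Pdcd1 were 71.2% and 76.2%, at median depths of 3370.5 and 9669.5 UMIs, so the order turned with depth. In monocytes and macrophages, which should lack them, Tigit was found in 0.107% of anti-PD1 KO and in none of 457 untreated KO cells at this depth, and Tox in 0.268% and in none. Median depths there were 5967 UMIs in anti-PD1 KO and 9858.5 UMIs in untreated KO before thinning.

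**Figure D1:**
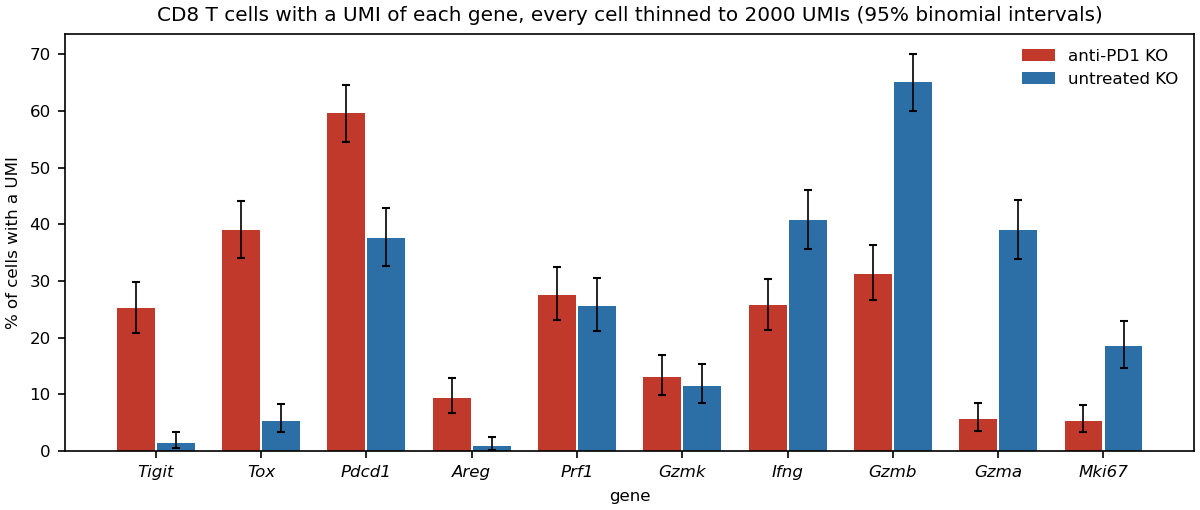
Share of CD8 T cells with at least 1 UMI of each gene after thinning every cell to 2000 UMIs, for anti-PD1 KO (left bar of each pair, 374 cells) and untreated KO (right bar, 356 cells), with 95% binomial intervals. Tigit (25.1% and 1.40%) and Tox (39.0% and 5.34%) were in more anti-PD1 KO cells, Gzma (5.61% and 39.0%) and Gzmb (31.3% and 65.2%) in fewer, and the bars of Prf1 and Gzmk overlap within their intervals.

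Among the cytotoxic genes the granzymes and the other effector genes parted. Gzma, a serine protease of the lytic granule, stood at 312 CPM in anti-PD1 KO (286 to 340) and 5796 CPM in untreated KO (5723 to 5870), a log2 ratio of -4.21. Gzmb, the main death-inducing granzyme, had 352 and 2344 CPM, a ratio of -2.73. Gzmc, a granzyme of strongly activated mouse T cells, had 13.3 and 1280 CPM, a ratio of -6.56, and Gzmg 1.20 and 73.8 CPM, a ratio of -5.62. The genes of granzymes B to G lie in a cluster of similar copies, so the division of reads among Gzmc, Gzmg and Gzmf is uncertain, but all of them were lower. Prf1, which encodes the pore protein perforin, did not follow: it had 212 CPM in anti-PD1 KO (190 to 235) and 204 CPM in untreated KO (190 to 218). Gzmk, the granzyme of memory-like and exhausted precursor cells, was also level at 74.1 and 72.1 CPM. Ccl5, a chemokine of effector T cells that is stored for fast release, was called higher at 5115 CPM in anti-PD1 KO and 1429 CPM in untreated KO. Nkg7, a granule membrane protein, had 2540 and 1405 CPM, and Fasl, the death ligand, 139 and 63.2 CPM. At equal depth Gzma was found in 5.61% of anti-PD1 KO CD8 T cells (3.51 to 8.46) and 39.0% of untreated KO cells (33.9 to 44.3), and Gzmb in 31.3% and 65.2%. Monocytes and macrophages at that depth had Gzma in none of 1868 anti-PD1 KO cells, which allows up to 0.161%, and in 3.94% of untreated KO cells. The share in CD8 T cells thus stood well above that background in both groups.

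The cytokine genes of CD8 T cells were divided as well, with 3 of 13 called higher and 5 lower and a median of -0.44. Areg, which encodes the growth factor amphiregulin linked to tissue repair, stood at 282.5 CPM in anti-PD1 KO (257 to 309) and 4.34 CPM in untreated KO (2.57 to 6.86), a ratio of 5.99. It was found in 9.36% and 0.843% of cells at equal depth, against 1.23% and 2.63% of monocytes and macrophages, so the share in untreated KO CD8 T cells was not above background. Ifng, the gene of interferon gamma, stood at 227 CPM in anti-PD1 KO (205 to 251) and 573 CPM in untreated KO (550 to 596), a ratio of -1.33. In CD8 T cells of WT mice Ifng stood at 506 CPM after anti-PD1 and 467 CPM untreated, a ratio of 0.12. Csf2, the gene of the myeloid growth factor GM-CSF, had 4.82 and 29.2 CPM in anti-PD1 and untreated KO, and Tnfsf14, the gene of LIGHT, 1.81 and 16.2 CPM. Of the 20 measured genes that interferon gamma drives, 1 was called higher and 6 lower in KO, with a median of -0.71. The gene called higher was Cxcl9, a chemokine of macrophages, at 89.1 and 6.51 CPM. Gbp4, a guanylate-binding protein, had 41.6 and 93.8 CPM, and Il12rb1, a chain of the IL-12 receptor, 12.6 and 31.8 CPM.

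Of 18 measured genes that mark naive or memory cells, 3 were called higher and 6 lower in CD8 T cells, with a median of -0.66. Bach2, a repressor that keeps T cells from terminal differentiation, stood at 196 CPM in anti-PD1 KO and 7.00 CPM in untreated KO, a ratio of 4.78. Its introns span 337 kb, and 4.07 was left beside the intron line. Bcl6, a repressor that opposes effector differentiation, had 41.6 and 5.55 CPM. Against these, Tcf7, the factor of stem-like T cells, had 19.3 CPM in anti-PD1 KO and 38.1 CPM in untreated KO, Id3, an inhibitor of E proteins, 3.61 and 26.3 CPM, and Klf2, the factor for exit to the blood, 59.6 and 265 CPM. S1pr1, a receptor that guides T cells back to blood, had 4.82 CPM in anti-PD1 KO against 14.2 CPM in untreated KO. It rested on 8 UMIs in anti-PD1 KO and 59 in untreated KO, and with the stricter cell filter its ratio was 0.10 in place of -1.49. Cxcr6, a receptor of T cells lodged in tissue, was at 739 CPM in anti-PD1 KO and 226 CPM in untreated KO, and Icos, a costimulatory receptor, at 818.5 and 267 CPM. Tnfrsf1b, the gene of the TNF receptor TNFR2, had 426 and 125 CPM, and Cd226, the activating rival of Tigit, 182.5 and 75.0 CPM. Of the 11 costimulatory receptors measured 3 were called higher and none lower, where 14.1% of all genes were called higher and 8.57% lower. Cd69, an early activation marker that also holds cells in tissue, was called lower at 98.8 and 391 CPM.

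The cell cycle genes gave the most one-sided list in CD8 T cells. Mcm5, a part of the DNA helicase loaded before replication, stood at 16.9 CPM in anti-PD1 KO (11.2 to 24.4) and 113 CPM in untreated KO (103 to 123). Bub1, a kinase of the spindle checkpoint, had 1.81 and 29.4 CPM, from 3 and 122 UMIs, and Bub1b, its partner, 5.42 and 31.4 CPM. Mki67, the usual marker of dividing cells, had 57.8 and 212 CPM, and it was found in 5.35% of anti-PD1 KO and 18.5% of untreated KO cells at equal depth. Top2a, the topoisomerase of dividing cells, had 97.0 and 311 CPM. The same genes were not lower in microglia or macrophages by as much: the list's median was 1.19 log2 units further down in CD8 T cells than in the other 3 lineages. The WT pair had a median of -1.18 for this list in CD8 T cells.

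RNA of macrophages was carried in the T cell barcodes, and more of it in anti-PD1 KO. All 13 macrophage markers were detected in anti-PD1 KO CD8 T cells and summed to 4836 CPM, while 12 of 13 were detected in untreated KO CD8 T cells and summed to 295 CPM, with Fcgr1 at 0. In CD4 T cells the sums were 6280 and 955 CPM. Ms4a7, Pla2g7 and Lrp1, all genes of macrophages, were among the genes that stood higher in CD8 T cells beyond the other lineages, with Ms4a7 at 30.7 CPM in anti-PD1 KO and 0.241 CPM in untreated KO. The ratio of Cxcl9, 3.75 in all CD8 T cells, was 1.39 in CD8 T cells with at most 2 UMIs of Lyz2, Apoe, C1qa, C1qb and C1qc together. That limit kept 133 of 420 anti-PD1 KO and 330 of 366 untreated KO CD8 T cells. Under it the ratio of Tigit was 5.55, of Tox 4.03, of Pdcd1 1.00, of Areg 6.09, of Gzma -4.53 and of Ifng -1.18, and the cell cycle median was -1.05. Markers of natural killer cells in CD8 T cells summed to 312 CPM in anti-PD1 KO and 5833 CPM in untreated KO, nearly all of it Gzma, with Ncr1, Klrb1c and Klra8 at 0 in anti-PD1 KO.

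**Figure D2:**
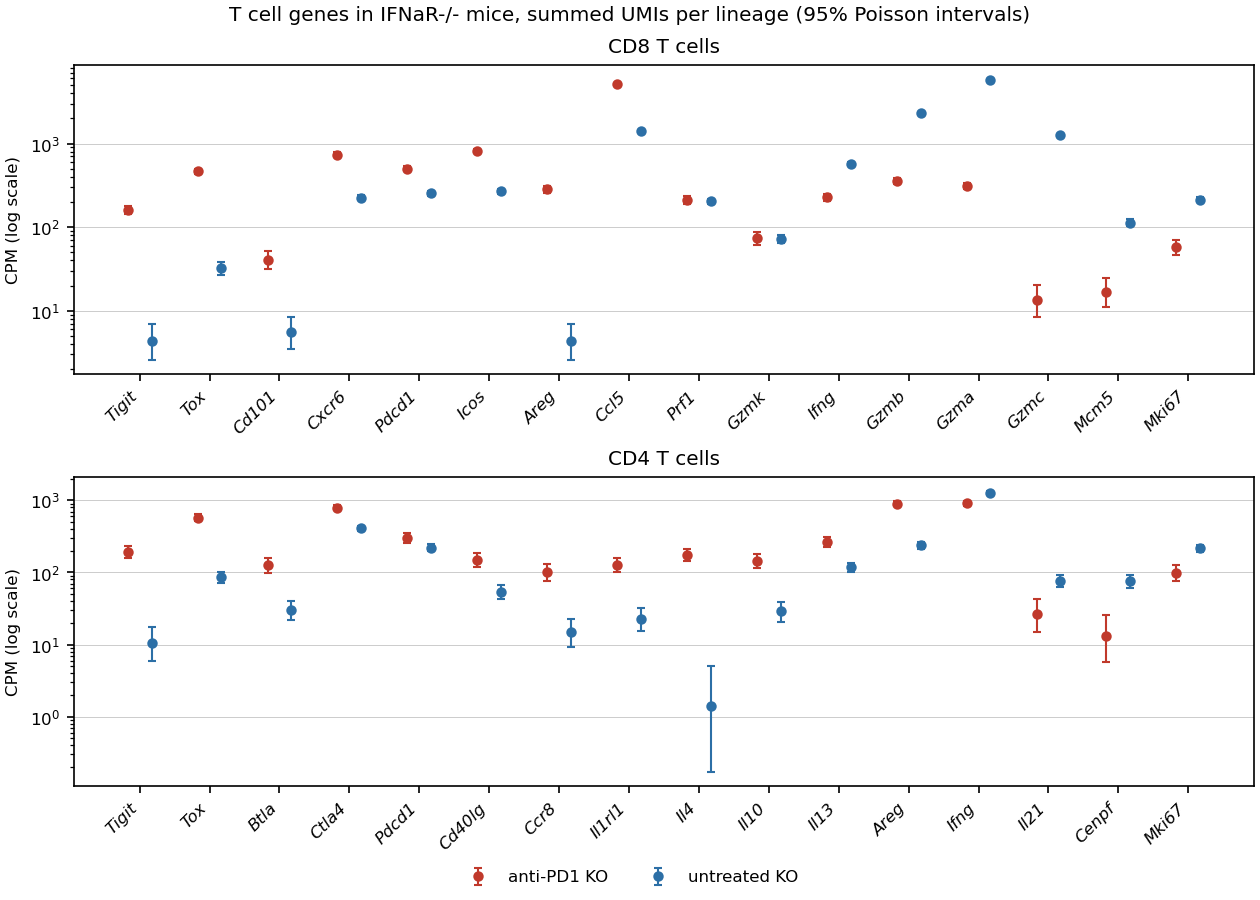
Levels of T cell genes in CPM on a log axis, with 95% Poisson intervals, in CD8 T cells (upper panel) and conventional CD4 T cells (lower panel) of anti-PD1 KO (left point of each pair) and untreated KO (right point). In CD8 T cells Tigit, Tox and Areg were higher and Gzma, Gzmb and Gzmc lower in anti-PD1 KO, while Prf1 and Gzmk lay level, and in CD4 T cells Il4 stood at 175 CPM against 1.41 CPM.

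Conventional CD4 T cells were few, 127 in anti-PD1 KO and 118 in untreated KO, and showed the same order for Tigit and Tox with a different set of cytokines. Of 5465 genes measured in CD4 T cells, 11.9% were called higher and 7.5% lower in anti-PD1 KO. Higher genes were 61.4% of those called, and 50.6% under TMM scaling, which moved the median of all genes by -0.11. Of 20 checkpoint and exhaustion genes 5 were called higher and 1 lower, with a median of 0.52 beside 0.00 for all genes. Tigit stood at 195 CPM in anti-PD1 KO (161 to 233) and 10.5 CPM in untreated KO (5.90 to 17.4), and Tox at 574.5 and 86.4 CPM, with 2.20 of its log2 ratio of 2.73 left beside the intron line. Btla, an inhibitory receptor for the TNF receptor family member HVEM, had 125.5 and 30.2 CPM. Pdcd1, at 300.4 CPM in anti-PD1 KO (258 to 347) and 221 CPM in untreated KO (198 to 247), was not called. Havcr2 was called lower with 72.6 and 195 CPM. Cd40lg, the gene of the ligand by which helper cells license antigen-presenting cells, had 150.2 CPM in anti-PD1 KO and 54.1 CPM in untreated KO.

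Of 16 cytokine genes in CD4 T cells 6 were called higher and 2 lower. The higher ones included genes of type 2 help. Il4, which drives antibody class switching and alternative activation of macrophages, had 106 UMIs in anti-PD1 KO and 2 in untreated KO, 175 and 1.41 CPM. It was found in 5.51% of the 127 anti-PD1 KO cells before thinning and 1.69% of the 118 untreated KO cells. At equal depth the shares were 3.36% (0.923 to 8.38) and 0.847% (0.021 to 4.63), with overlapping intervals. The UMIs of Il4 thus came from few cells. Il13, its close relative, had 266 and 117 CPM, and Il1rl1, the receptor for IL-33, 129 and 22.5 CPM. Ccr8, a receptor of tumour regulatory and type 2 T cells, had 101 and 14.8 CPM. Il10, an inhibitory cytokine, had 145 CPM in anti-PD1 KO and 28.8 CPM in untreated KO, yet the share of cells with it was 7.56% and 9.32% at equal depth, so no order was read from the shares. In cells with at most 2 of the macrophage UMIs, 47 and 107 cells, the ratio of Il10 was 0.13 in place of 2.33 and that of Il4 was 3.41 in place of 6.65. Areg had 898 CPM in anti-PD1 KO and 239 CPM in untreated KO. Its share of cells at equal depth was 21.8% (14.8 to 30.4) and 19.5% (12.8 to 27.8), so the shares were level. Tnfsf11, the gene of RANKL, had 715 CPM in anti-PD1 KO and 249 CPM in untreated KO. On the other side, Ifng was at 906 CPM in anti-PD1 KO (832 to 985) and 1269 CPM in untreated KO (1211 to 1329), Il21, the helper cytokine for CD8 T cells, at 26.4 and 75.9 CPM, and Lta, the gene of lymphotoxin alpha, at 34.7 and 90.6 CPM. Xcl1, the chemokine that draws type 1 dendritic cells, had 92.4 and 7.73 CPM.

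Division genes stood lower in CD4 T cells too, while the cytotoxic genes were divided. Of 23 cytotoxic genes 4 were called higher and 7 lower, with a median of -0.24, where 11.9% of all genes were called higher and 7.5% lower. Gzmc had 0 UMIs in anti-PD1 KO and 81 in untreated KO. Gzmf, a granzyme of the same cluster, had 13.2 and 293 CPM, although with stricter gates the ratio of Gzmf was 2.33 in place of -4.39. At equal depth Gzmf was in 2.52% of anti-PD1 KO and 1.69% of untreated KO cells, so no direction was read for it. Of 33 measured cell cycle genes none was called higher and 16 lower, with a median of -0.97. Cenpf, a protein of the kinetochore, had 13.2 CPM in anti-PD1 KO and 75.2 CPM in untreated KO, and Ccna2, the cyclin of S phase and mitosis, 14.9 and 63.9 CPM. Bach2, at 253 and 26.7 CPM, and Klf2, at 46.2 and 263 CPM, kept the directions they had in CD8 T cells, with 2.68 of the ratio of 3.23 left for Bach2 beside the intron line. Of 15 genes of naive and memory cells, 4 were called higher and 1 lower here.

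Microglia of anti-PD1 KO mice had more RNA of the genes that microglia switch on in disease and less of the genes of resting microglia and of the response to interferon gamma. Of 9000 genes measured in microglia, 9.89% were called higher and 12.2% lower, and the median of all genes was -0.22. Higher genes were 44.7% of those called, and 74.9% under TMM scaling, which moved the median by 0.32, so the lists are read against the median of all genes. Of 25 disease-associated genes 14 were called higher and none lower, with a median of 1.12. For the 20 of them also measured in other lineages, the median of the ratio minus that of the other lineages was -1.16. The list thus did not stand higher in microglia beyond the other lineages. Of 24 homeostatic genes none was called higher and 7 lower, with a median of -0.69, and of the 18 that the gate did not use 5 were called lower, with the same median. Of 23 genes linked to interferon gamma none was called higher and 15 lower, with a median of -1.09.

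Gpnmb, a membrane glycoprotein of lipid-laden phagocytes, stood at 349 CPM in anti-PD1 KO and 13.4 CPM in untreated KO, a ratio of 4.66. Igf1, the insulin-like growth factor, had 317 and 26.7 CPM, Apoc1, a small apolipoprotein, 460 and 70.7 CPM, and Spp1, the gene of osteopontin, 1094 and 447 CPM. For Spp1 the direction did not hold: its log2 ratio of 1.29 was -0.30 with stricter gates and -0.21 after thinning. Apoe, the main lipid carrier of the brain, had 31494 CPM in anti-PD1 KO and 11668 CPM in untreated KO. Cst7, a cystatin, had 345 and 123 CPM, and Fabp5, a fatty acid-binding protein, 487.5 and 81.2 CPM. These genes are also made by tumour macrophages, and the summed macrophage markers were 65985 CPM in anti-PD1 KO microglia and 49652 CPM in untreated KO microglia. P2ry12 and Tmem119 belong to the gate, so their levels of 416 and 320 CPM in anti-PD1 KO and 772 and 684 CPM in untreated KO are a description. P2ry13, a purine receptor of resting microglia that the gate did not use, had 66.1 CPM in anti-PD1 KO and 219 CPM in untreated KO. Cx3cr1, the fractalkine receptor, had 1519 and 2839 CPM, a ratio of -0.90 that was -1.08 beside the intron line. Bhlhe41, a factor of resident macrophages, had 78.1 and 193 CPM, and Adgrg1, an adhesion receptor of yolk sac-derived microglia, 117 and 268 CPM. The disease-associated genes and the resting genes thus stood on opposite sides. At equal depth Gpnmb was found in 17.4% of anti-PD1 KO microglia (15.2 to 19.8) and 2.44% of untreated KO microglia (0.506 to 6.96), and P2ry12 in 49.9% (46.9 to 52.9) and 61.0% (51.8 to 69.6). In CD8 T cells, which should lack Gpnmb, it was found in 2.94% of anti-PD1 KO cells and in none of 356 untreated KO cells. Apoe at equal depth was in 91.8% of anti-PD1 KO and 74.0% of untreated KO microglia. It was also in 65.8% and 11.8% of CD8 T cells in that order, and the part of carried RNA was not tested.

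Inflammatory cytokine genes had a median of 0.95 in microglia, with 9 of 19 called higher and none lower. Il1b, the gene of interleukin-1 beta, stood at 1362 CPM in anti-PD1 KO and 218 CPM in untreated KO, and Acod1, which makes itaconate, at 106 and 17.2 CPM. At equal depth Il1b was in 43.9% of anti-PD1 KO and 17.1% of untreated KO microglia. It was also in 13.4% and 1.97% of CD8 T cells in that order, and the part of carried RNA was not tested. Ccl4, an inflammatory chemokine, had 7873 and 2535 CPM. Tnf, at 253 CPM in anti-PD1 KO (242 to 265) and 234 CPM in untreated KO (206 to 265), was level. Vegfa, the growth factor of blood vessels, had 86.0 and 6.69 CPM. Ccl8, a chemokine of tissue macrophages, had 408 and 34.4 CPM, but at equal depth it was in 26.6% of anti-PD1 KO microglia and in 27.5% of anti-PD1 KO CD8 T cells, so in anti-PD1 KO microglia it was not above background.

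Genes downstream of interferon gamma stood lower in microglia. Gbp4 had 8.98 CPM in anti-PD1 KO (6.96 to 11.4) and 55.4 CPM in untreated KO (42.1 to 71.6), and Gbp7, another guanylate-binding protein, 48.8 and 235 CPM. Socs1, the feedback inhibitor of interferon signalling, had 4.56 and 21.97 CPM, and Cxcl9 79.7 and 301 CPM. Irf1, the first factor induced by interferon gamma, had 103 and 206 CPM. Ciita, the master switch of MHC class II, had 27.1 CPM in anti-PD1 KO and 55.4 CPM in untreated KO, yet the class II genes themselves were level: H2-Aa had 3407 and 3103 CPM and Cd74, the invariant chain, 11853 and 9637 CPM. In WT microglia the median of the same list was -0.07, against -1.09 in KO, and that of MHC class II presentation was 1.15, against 0.01 in KO. The receptor chain Ifngr1 had 205 CPM in anti-PD1 KO and 382 CPM in untreated KO. Of the 25 type I interferon-stimulated genes measured, 10 were called lower and none higher, among them Isg15 with 19.8 and 86.9 CPM.

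Gbp7 and Irf1 can be shown with their promoters, the 250 bases before and 50 after the start in the RefSeq table for GRCm38.p6, because both carry the gamma-activated site TTCNNNGAA of the interferon gamma response, searched on both strands and marked in capitals. The pattern is its own reverse complement. It was in 8.47% of all 27025 promoters of the table and in 11 of the 20 promoters found for the 31 genes of the list, 55.0%. The promoters of Gbp4 and Cxcl9 were looked for as well: that of Cxcl9 held no match, and Gbp4 was not in the table. A match is a stretch of letters and was not tested for binding. The Gbp7 promoter lies at chr3:142530086-142530385 on the + strand and that of Irf1 at chr11:53769764-53770063 on the + strand.
Gbp7: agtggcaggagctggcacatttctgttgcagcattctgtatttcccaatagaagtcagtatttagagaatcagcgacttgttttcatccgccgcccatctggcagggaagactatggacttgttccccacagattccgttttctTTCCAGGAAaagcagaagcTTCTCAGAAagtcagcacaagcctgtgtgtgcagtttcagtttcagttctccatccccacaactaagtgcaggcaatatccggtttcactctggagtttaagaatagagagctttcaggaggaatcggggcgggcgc
Irf1: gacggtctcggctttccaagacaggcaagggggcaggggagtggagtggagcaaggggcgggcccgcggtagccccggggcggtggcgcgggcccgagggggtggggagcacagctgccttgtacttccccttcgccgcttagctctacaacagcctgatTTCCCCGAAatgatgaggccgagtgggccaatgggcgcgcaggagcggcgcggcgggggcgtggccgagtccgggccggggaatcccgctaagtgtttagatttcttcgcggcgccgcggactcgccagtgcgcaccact

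Monocytes and macrophages of anti-PD1 KO mice had less RNA of monocyte genes. Of 9839 genes measured in monocytes and macrophages, 9.88% were called higher and 13.9% lower, with a median of -0.24. Higher genes were 41.6% of those called, and 64.4% under TMM scaling, which moved the median by 0.30. Of 21 monocyte genes 1 was called higher and 14 lower, with a median of -1.97, and 13 of 19 were lower without Ccr2 and Plac8, which the gate used. Of 30 lysosome and cathepsin genes 5 were called higher and none lower, with a median of 0.39. Of 30 suppressive and wound-type genes 10 were called higher and 10 lower. The gate held 86.1% C1q-rich cells in anti-PD1 KO and 57.5% in untreated KO, so the mix of cells changed with the groups. Of 9506 genes measured in C1q-rich cells 9.64% were called higher and 12.8% lower. Within them the lysosome median was 0.25, with 4 of 30 called higher, near the share of all genes called higher there. The suppressive and wound-type median in C1q-rich cells was 0.18, against -0.28 in the whole gate, with 10 of 28 called higher and 10 lower.

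Vcan, a proteoglycan of classical monocytes, stood at 3.101 CPM in anti-PD1 KO (2.23 to 4.21) and 56.5 CPM in untreated KO (50.1 to 63.5). Lcn2, the iron-binding lipocalin, had 1 UMI in anti-PD1 KO and 102 UMIs in untreated KO. Chil3, a chitinase-like protein of maturing monocytes, had 617 and 2543 CPM, and Ly6c2, the surface marker of inflammatory monocytes, 16.6 and 76.7 CPM. Within C1q-rich cells the monocyte median was -1.32 and within C1q-poor cells -0.96, so it stood below that of all genes in both. Those medians of all genes were -0.24 and -0.10. The WT pair had a median of -0.92 for the whole gate.

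Ccl8 had the largest ratio among the chemokines, with 8057 CPM in anti-PD1 KO (8009 to 8106) and 227 CPM in untreated KO (214 to 241), a ratio of 5.15. It was found in 56.4% and 5.47% of cells at equal depth. Pf4, the platelet factor 4 of tissue macrophages, had 423 and 51.2 CPM. Ccl17, a chemokine for CCR4 on regulatory and type 2 T cells, was at the other end with 1.82 CPM in anti-PD1 KO and 166 CPM in untreated KO, and Cxcl3, which draws neutrophils, had 2.87 and 55.3 CPM, a ratio of -4.25 that was -2.78 beside the intron line. Ccl17 is also a gene of dendritic cells, whose 5 markers summed to 16.3 CPM in anti-PD1 KO and 84.9 CPM in untreated KO in this gate. In the WT pair Ccl17 had a ratio of -0.42.

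Arg1, the arginase that uses up arginine, stood at 2675 CPM in anti-PD1 KO and 932.5 CPM in untreated KO, Retnla, a marker of alternative activation, at 424 and 91.8 CPM, and Spp1 at 1660 and 261 CPM. Cd163, the haemoglobin scavenger receptor, had 1.74 and 17.2 CPM, Il10 5.52 and 37.9 CPM, and Cd209d, a lectin, 0.605 and 29.7 CPM. Mrc1, the mannose receptor, had 580 and 1061 CPM, short of the 2-fold call, and was in 55.1% of anti-PD1 KO and 46.8% of untreated KO cells at equal depth, so no direction was read for it. Genes usually grouped as suppressive therefore parted into both directions. Nos2, the inducible nitric oxide synthase, had 77.8 and 8.88 CPM, and it was found in 7.01% of anti-PD1 KO and 1.53% of untreated KO cells at equal depth. Il1b was at 2359 and 1621 CPM, and Tnf at 40.8 and 166 CPM.

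The lysosomal protease gene Ctsd had 3077 CPM in anti-PD1 KO and 649 CPM in untreated KO, and Cd63, a membrane protein of late endosomes, 1610 and 375 CPM. In C1q-poor cells, however, the lysosome list had a median of -0.10, the same as all genes there. Of 15 complement genes 4 were called higher and 1 lower, with a median of 0.41, and 3 higher and 1 lower with a median of 0.18 within C1q-rich cells. C1qb had 3568 and 1194 CPM, but it is one of the genes that define the C1q gates. Cfb, factor B of the alternative pathway, had 119 and 22.2 CPM. Of 32 lipid and cholesterol genes 5 were called higher and 8 lower, with a median of -0.38, so the list as a whole was not higher. Abca1, the cholesterol exporter, had 530 and 92.4 CPM, with 2.34 of its ratio of 2.52 left beside the intron line, and Apoc1 87.1 and 7.26 CPM. Apoc2, an activator of lipoprotein lipase, had 3549 UMIs in anti-PD1 KO and 2 in untreated KO, and it was near 0 in untreated WT too, where its ratio was 9.44. For a gene at or near 0 in both untreated libraries, treatment and the libraries' properties cannot be told apart.

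Genes linked to interferon gamma had a median of -0.84 in monocytes and macrophages, with 2 of 29 called higher and 11 lower. Ciita had 53.4 CPM in anti-PD1 KO (49.5 to 57.5) and 204 CPM in untreated KO (191 to 217), Gbp4 44.4 and 114 CPM, and Irf1 121 and 247 CPM. Cxcl9 stood level at 836.5 and 916 CPM. H2-Aa had 6746 and 5538 CPM and Cd74 17138 and 12268 CPM. Within C1q-rich cells the median of this list was -0.75, with 1 of 29 called higher and 6 lower. Slfn1, a schlafen family gene that interferon induces, had 3.93 and 49.6 CPM. Of 61 genes of oxidative phosphorylation 9 were called higher and none lower, where 9.88% of all genes were called higher. They were led by Ndufb2, a subunit of complex I, with 227 and 88.0 CPM. Within C1q-rich cells 5 of 61 were called higher, near the 9.64% of all genes there. The list's median was 0.72 in the whole gate and 0.68 in C1q-rich cells, against -0.24 for all genes in each.

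**Figure D3:**
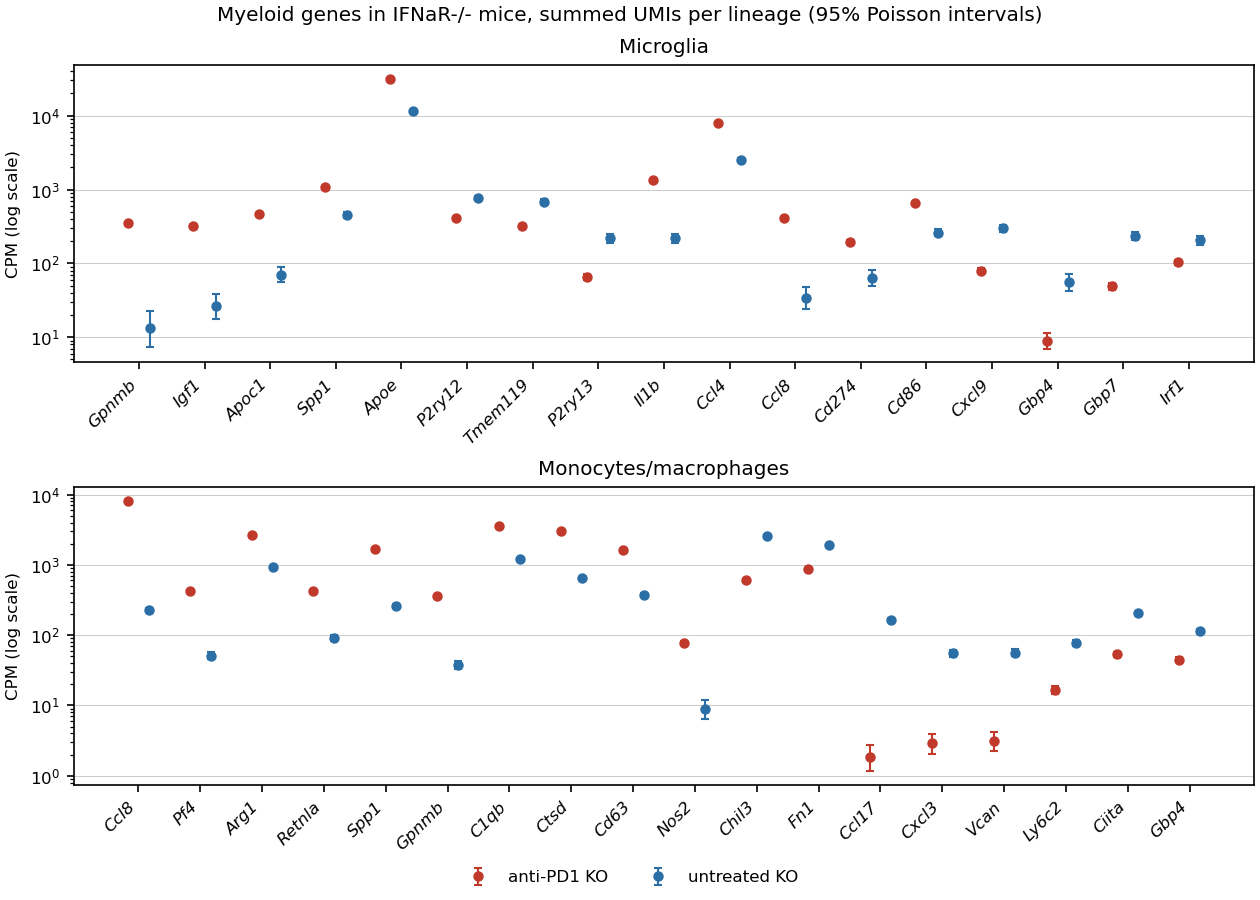
Levels of myeloid genes in CPM on a log axis, with 95% Poisson intervals, in microglia (upper panel) and monocytes and macrophages (lower panel) of anti-PD1 KO (left point of each pair) and untreated KO (right point). Gpnmb and Igf1 in microglia and Ccl8, Arg1 and Ctsd in macrophages were higher in anti-PD1 KO, while Gbp4 and Gbp7 in microglia and Ccl17 and Vcan in macrophages were lower.

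The ligands of PD-1 and the receptors of both interferons were read in all 4 lineages. Cd274, the gene of PD-L1, stood at 195 CPM in anti-PD1 KO and 64.0 CPM in untreated KO in microglia, and at 232 and 166 CPM in monocytes and macrophages. In T cells it had 117 and 58.1 CPM in the CD8 lineage and 129 and 64.6 CPM in the CD4 lineage. Pdcd1lg2, the gene of PD-L2, had 177 CPM in anti-PD1 KO and 75.5 CPM in untreated KO in monocytes and macrophages, and was found in 25.6% and 12.9% of them at equal depth. Cd274 and Pdcd1lg2 thus had more RNA in anti-PD1 KO in each lineage with at least 50 UMIs of the gene. Cd86, a ligand of CD28 and CTLA-4, had 665 and 262 CPM in microglia and 431 and 181 CPM in macrophages. Icosl, the ligand of ICOS, was lower at 22.5 and 70.7 CPM in microglia and 4.46 and 37.9 CPM in macrophages, while Icos in CD8 T cells was higher. Ifngr1, the ligand-binding chain of the interferon gamma receptor, was higher in CD8 T cells, with 555 CPM in anti-PD1 KO and 370 CPM in untreated KO, and lower in macrophages, with 111 and 230 CPM. Ifngr2, the signalling chain, had 119 and 82.1 CPM in macrophages. Ifnar2, the other chain of the type I receptor, had 78.3 and 22.7 CPM in CD8 T cells and 195 and 87.4 CPM in macrophages.

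Heat shock genes were lower in anti-PD1 KO in all 4 lineages. In each lineage 11 genes of the list were called lower and none higher, of 14 measured in CD4 T cells and 15 in each other lineage. Of all genes, 8.57% were called lower in CD8 T cells, 7.5% in CD4 T cells, 12.2% in microglia and 13.9% in monocytes and macrophages. The list's medians were -1.38 in CD8 T cells, -1.72 in CD4 T cells, -1.48 in microglia and -2.14 in monocytes and macrophages. In the WT pair the medians were -1.41, -1.28, -1.34 and -2.20 in the same lineages. Hspa1a, the inducible chaperone HSP70, stood at 64.2 CPM in anti-PD1 KO and 3120 CPM in untreated KO in macrophages and at 117 and 1595 CPM in CD8 T cells. Hspa1b, its near-identical copy, had 68.8 and 4023 CPM in macrophages, and reads may be divided between the copies. Both lack introns, and beside the intron line the ratios of Hspa1a were -2.16 in place of -3.77 in CD8 T cells and -4.13 in place of -5.60 in macrophages. The list's medians beside the intron line were -1.44 in CD8 T cells, -1.61 in CD4 T cells, -1.30 in microglia and -1.91 in macrophages. Hsph1, the chaperone HSP110, had 175 and 430 CPM in CD8 T cells. The share of barcodes over the mitochondrial limit was also lower in anti-PD1 KO, 3.29% against 24.2%, and its part in this result was not tested. Of 25 genes of receptor signalling and the immediate early response, 13 were called lower and none higher in macrophages, with a median of -1.06, and 11 were lower and 1 higher in CD8 T cells. Of all genes, 13.9% were called lower and 9.88% higher in macrophages, and 8.57% and 14.1% in CD8 T cells. Jun, an immediate early factor, had 213 and 1457 CPM in macrophages and 128 and 755 CPM in CD8 T cells, and Egr1, another, 50.2 and 479 CPM in macrophages. Jun also lacks introns, and beside the intron line its ratio was -0.95 in place of -2.56 in CD8 T cells, which ends the 2-fold call, and -1.31 in place of -2.78 in macrophages. Genes with under 1 kb of intron had medians of only -0.35 in CD8 T cells and -0.54 in macrophages. The line took more than that off Jun and Hspa1a, so how much of their ratios goes with intron length is uncertain. The median of the receptor signalling and immediate early list in CD8 T cells was -0.48, and 0.22 beside the intron line, so its sign rested on that line. In WT macrophages the median of this list was 0.00, although Jun had a ratio of -2.15 there.

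The promoters of Hspa1a, Hspa1b and Hsph1 are shown because the list stood lower in every lineage and these 3 promoters hold the heat shock element, here GAANNTTC or TTCNNGAA, the inverted repeat that heat shock factors bind. Each form is its own reverse complement, overlapping matches were counted apart, neither form contains the gamma-activated site or lies in it, and matches are in capitals. In the same RefSeq windows it was in 15.1% of the 27025 promoters and in 8 of the 12 found for the 15 genes of the list, 66.7%, while 1.89% of all promoters and 4 of those 12 held 2 or more. Hspa1a lies at chr17:34972107-34972406, Hspa1b at chr17:34959189-34959488 and Hsph1 at chr5:149636287-149636586, all on the - strand. The windows of Hspa1a and Hspa1b are almost the same letters with the element at the same place, and that of Hsph1 holds 3 matches.
Hspa1a: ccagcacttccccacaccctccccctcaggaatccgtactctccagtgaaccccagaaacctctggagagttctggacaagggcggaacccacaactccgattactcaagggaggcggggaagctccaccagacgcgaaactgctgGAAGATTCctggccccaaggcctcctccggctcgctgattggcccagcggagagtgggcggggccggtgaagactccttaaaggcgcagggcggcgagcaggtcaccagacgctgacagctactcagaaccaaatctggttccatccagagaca
Hspa1b: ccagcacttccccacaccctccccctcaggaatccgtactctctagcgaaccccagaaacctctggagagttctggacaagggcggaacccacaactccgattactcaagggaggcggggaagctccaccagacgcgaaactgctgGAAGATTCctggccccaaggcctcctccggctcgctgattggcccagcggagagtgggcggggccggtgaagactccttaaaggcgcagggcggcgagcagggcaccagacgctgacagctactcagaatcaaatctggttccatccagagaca
Hsph1: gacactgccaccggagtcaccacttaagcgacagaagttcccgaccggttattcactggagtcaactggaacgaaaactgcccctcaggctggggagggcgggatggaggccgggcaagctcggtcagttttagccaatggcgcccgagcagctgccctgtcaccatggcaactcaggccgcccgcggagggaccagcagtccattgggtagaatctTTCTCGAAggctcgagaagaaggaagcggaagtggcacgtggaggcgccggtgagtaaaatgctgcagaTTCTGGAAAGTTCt

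Outside the lists, a few genes had a large ratio of the same direction in every lineage. Il31ra, a receptor chain for interleukin-31, had 1101 UMIs in anti-PD1 KO and 0 in untreated KO in CD8 T cells, 2771 and 0 in microglia, and 7044 and 22 in monocytes and macrophages. Galnt2, which adds the first sugar of O-glycans, had 235 and 3 UMIs in CD8 T cells, and Cmss1, a ribosomal small subunit protein, 1566 and 54. Their ratios of 7.39 and 6.17 were 6.88 and 5.47 beside the intron line. In the other direction Ptp4a1, a phosphatase, had 6 UMIs in anti-PD1 KO and 553 in untreated KO in CD8 T cells and 35 and 1310 in macrophages. Chka, choline kinase, had 84.1 and 354 CPM in macrophages. The WT pair showed the same direction for all of them. The libraries' properties differed along with them in both pairs, and their part was not tested.

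Set beside the WT pair, the KO pair had the same direction in most of the lists that stood out, and the plot of list medians shows both. In CD8 T cells the checkpoint median was 0.62 in KO and 0.65 in WT, and Tigit, at 381 CPM after anti-PD1 and 5.96 CPM untreated in WT, had a ratio of 5.98 there. In microglia the disease-associated median was 1.12 in KO and 1.18 in WT. The pairs parted in CD8 T cells for genes linked to interferon gamma, at -0.71 in KO and 0.51 in WT, for cytotoxic genes, at -0.39 and 0.33, and for naive and memory genes, at -0.66 and 0.69. Gzmb in WT had 2281 CPM after anti-PD1 and 2985 CPM untreated, a ratio of -0.39, against -2.73 in KO. In macrophages the inflammatory cytokines parted, at -0.24 in KO and 0.77 in WT. With 1 library in each group, whether these differences exceed the spread between mice was not tested. The receptor segment ratio was 207 variable UMIs per 100 constant in anti-PD1 WT and 1.85 in untreated WT, so the libraries differed in this respect more in the WT pair than in the KO pair.

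**Figure D4:**
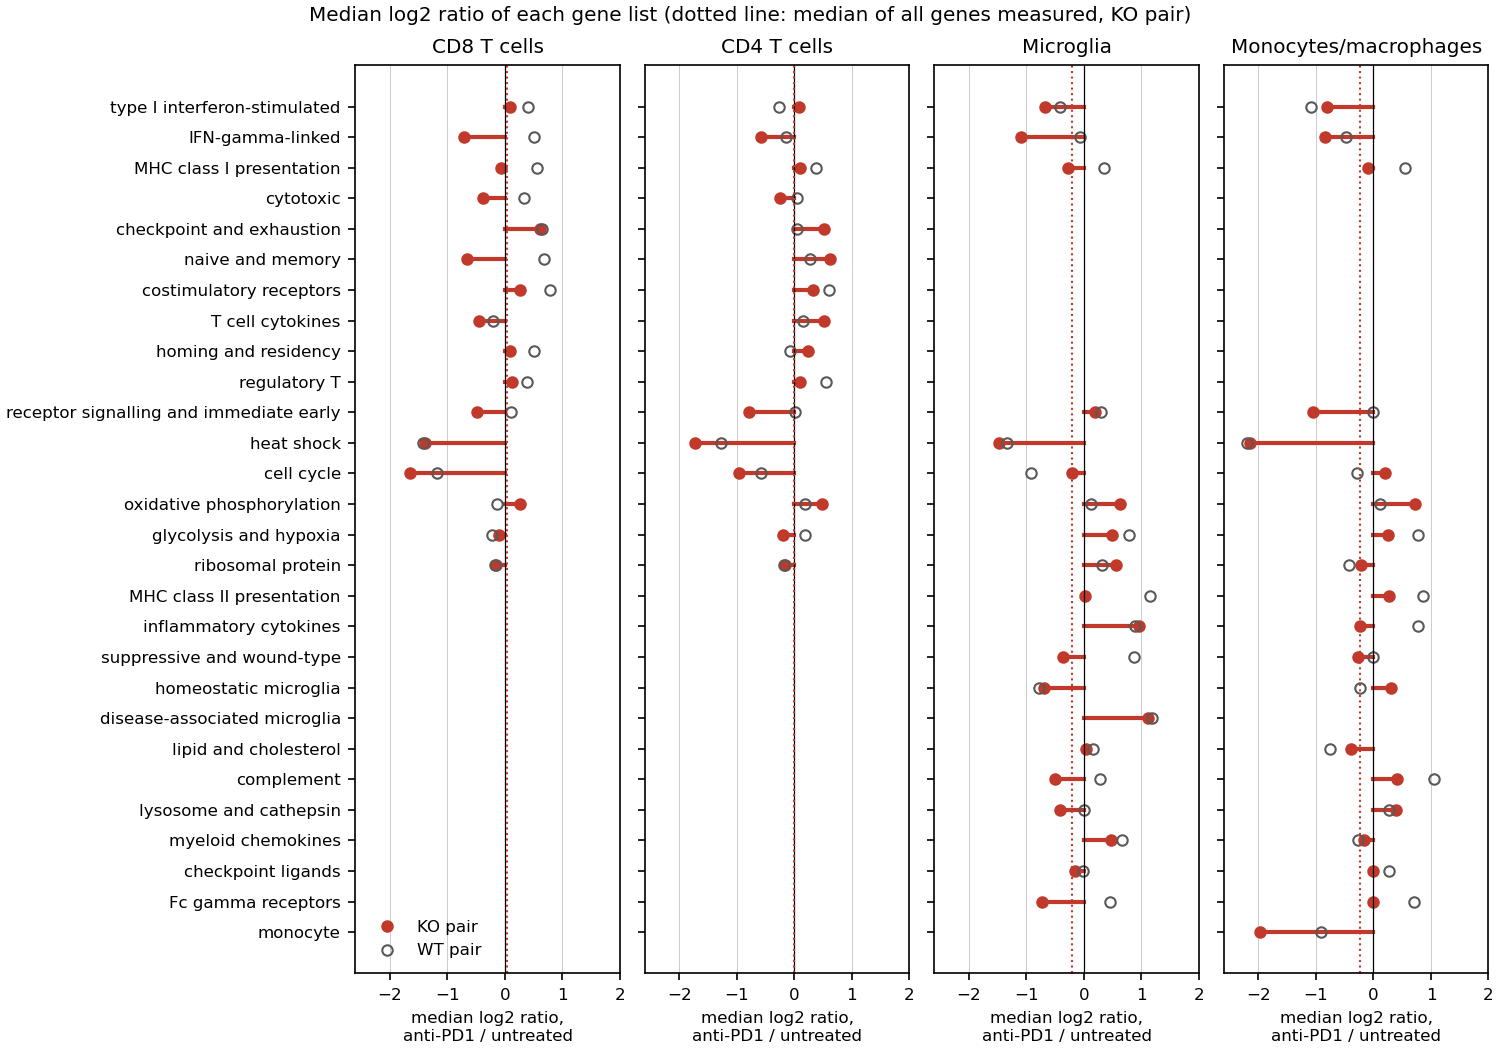
Median log2 ratio, anti-PD1 over untreated, of each gene list (rows) in the 4 lineages (panels), for the KO pair (filled points with bars from 0) and the WT pair (open points), with a dotted line at the median of all genes measured in the KO pair. Heat shock genes lay below 0 in all panels in both pairs, cell cycle genes lay furthest below in CD8 T cells, and the interferon gamma list in CD8 T cells lay at -0.71 in KO and 0.51 in WT.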

How the data were processed

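The authors deposited unnormalized UMI counts for each gene and barcode. Per the file headers they came from Cell Ranger 7.2.0 for anti-PD1 KO and Cell Ranger 3.1.0 for untreated KO, and per the submitters' processing notes from builds mm10 and GRCm38. Settings for intronic reads and cell calling are not given in the sources used here. The feature lists held 32285 genes for anti-PD1 KO and 31053 for untreated KO, and the 30406 genes in both took 99.5% and 99.9% of UMIs.

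Barcodes with at least 200 genes and at most 10% mitochondrial UMIs were kept. No doublet caller was run: gates excluded markers of other lineages, and barcodes of several gates were dropped. Lineages were gated on raw UMIs (T cells: at least 2 of Cd3d, Cd3e and Cd3g and at most 1 of myeloid or microglial markers; microglia: at least 3 of P2ry12, Tmem119, Sall1, Gpr34, Sparc and Olfml3; monocytes and macrophages: at least 3 of Ccr2, Itga4, Ms4a7 and Plac8 with 1 of Csf1r, Fcgr1 and Adgre1; C1q-rich: at least 10 C1q UMIs; C1q-poor: at most 3). UMIs were summed per lineage, and a lineage needed 50 cells in both libraries to be compared. Ratios have exact binomial intervals and shares exact Clopper-Pearson intervals, all covering counting error only, and the limit given beside a count of 0 is 3 counts of the total, not the Clopper-Pearson bound. The median depth per cell, 3370.5 UMIs in anti-PD1 KO and 9669.5 UMIs in untreated KO for CD8 T cells, limits shares of cells, so those were taken after thinning to 2000 UMIs. With 1 library in each group no p-value was computed.

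The rule for named genes took the PD-1 and interferon receptor genes, up to 3 members of each of 29 lists with the largest absolute ratio in a lineage, the 5 highest and 5 lowest genes beyond the other 3 lineages and the 5 highest and 5 lowest shared by all 4 lineages. Other members of the lists were named after their values were seen, and some genes that the rule takes are not reported here. The comparison and lists were chosen with earlier results of these data known. There were 17 alternatives (cell filter, gates, thinning, scaling, minimum, pseudocount, intron length and C1q subsets), 2 of them chosen after seeing the data. Intron lengths came from the GENCODE annotation of GRCm38. Tools were Python 3.11.15, numpy 2.4.6, scipy 1.17.1, pandas 2.3.3, matplotlib 3.10.9, and, for scaling factors, edgeR 4.0.16 and DESeq2 1.42.0 in R 4.3.3. Ratio scripts were tested on simulated data.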

Additional observations from a re-analysis of the deposited data

Results flagged for a closer look

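Of the 21 list medians that the text leads with, 4 had opposite signs for anti-PD1 over untreated in the KO pair and the WT pair, and over all lists and the 4 lineages 24 of 76 had. Of 170 values of named genes 6 passed the 2-fold call in opposite directions. The difference was not tested, since each group was 1 library. In CD8 T cells the median log2 ratio of genes linked to interferon gamma was -0.71 in the KO pair and 0.51 in the WT pair, that of cytotoxic genes -0.39 and 0.33, and that of naive and memory genes -0.66 and 0.69. In monocytes and macrophages the median of inflammatory cytokine genes was -0.24 in the KO pair and 0.77 in the WT pair.

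In CD4 T cells Xcl1 had a log2 ratio of 3.53 in the KO pair and -1.3 in the WT pair, Il10 2.33 and -1.7, Ccr2, a chemokine receptor of monocytes and some T cells, 2.49 and -1.44, and Fscn1, the actin-bundling protein fascin, -3.66 and 2.52. Xcl1 rested on 56 UMIs in anti-PD1 KO and 11 in untreated KO, and Fscn1 on 2 and 74. In the KO pair the ratio of Fscn1 was 3.18 with stricter gates, the direction of the WT pair. In CD4 T cells with at most 2 macrophage UMIs the ratio of Ccr2 was 1.23 and that of Il10 0.13, and after thinning they were 0.35 and 0.41. In monocytes and macrophages Aldoc, a glycolytic aldolase, had -1.89 in the KO pair and 1.22 in the WT pair, and Mmp12, the macrophage elastase, -2.73 and 1.16. Mmp12 stood at 94.2 CPM in anti-PD1 KO and 627 CPM in untreated KO.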

How the results depend on the processing

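Of 315 values that the 21 leading list medians took under the alternatives, 303 stayed within the interval of the main median and 1 turned: the lysosome median of macrophages was -0.10 in C1q-poor cells. That interval was taken from the ranked ratios of the list's members, treated as independent, and does not cover counting error. Looser gates left the T cell gates as they were, so their T cell values could not differ from the main ones. The cell cycle median was -1.05 in CD8 and -0.71 in CD4 T cells with at most 2 macrophage UMIs, -2.13 and -1.29 without the top 5% of cells by UMIs, and -1.89 in CD8 T cells with equal weight per cell. TMM and DESeq2 scaling moved the microglial medians to 1.44 and 1.44 (disease-associated), -0.37 and -0.37 (homeostatic) and -0.77 and -0.78 (interferon gamma). They turned the MHC class I median of microglia to 0.040 and 0.036 and the ribosomal protein median of macrophages to 0.085 and 0.094, and TMM turned the MHC class I median of CD4 T cells to -0.0033. Adjusting for intron length turned the ribosomal protein medians to 0.10 (CD8 T), 0.047 (CD4 T) and 0.26 (macrophages). It also ended the 2-fold call of Cd226 (0.81), Cd274 (0.85), Pdcd1lg2 (0.81) and Jun (-0.95) in CD8 T cells, Tmem119 (-0.89), Bhlhe41 (-0.88) and Irf1 (-0.79) in microglia, and Irf1 (-0.75) and Ifngr1 (-0.94) in macrophages. Jun lacks introns and may be overcorrected. The microglial share differed by 22.04 points with the stricter cell filter and 21.2 points after thinning, against 14.0. Of 2564 values of named genes, 5 turned: Fscn1 (3.18) and Gzmf (2.33) in CD4 T cells and Spp1 (-0.30) in microglia with stricter gates, Spp1 (-0.21) after thinning, and S1pr1 (0.10) in CD8 T cells with the stricter cell filter.

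Of 120 counts of genes called, 86 stayed within 1.5 times the main count. A minimum of 10 and of 1 UMI, which tests more genes, gave 1938 and 3930 higher and 1185 and 2056 lower in CD8 T cells, 1533 and 3404 higher and 964 and 1742 lower in CD4 T cells, 1411 and 1674 higher and 1905 and 4785 lower in microglia, and 1572 and 2346 higher and 2131 and 3748 lower in macrophages. Thinning, which leaves fewer genes, gave 666 higher and 255 lower in CD8 T cells, 164 and 105 in CD4 T cells, 603 lower in microglia, and 611 and 662 in macrophages. TMM and DESeq2 scaling gave 1394 and 1383 higher and 468 and 472 lower in microglia, and 774 and 753 lower in macrophages. A pseudocount of 5 gave 537 higher in microglia and 224 lower in CD4 T cells, stricter gates 424 higher in CD4 T cells, and C1q-poor cells 549 higher and 640 lower. Other causes of change were not tested.

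No paired analysis was possible because each group holds 1 library, with no replicate to leave out. Depth limits low genes: 50 UMIs over both libraries was the least a called gene had. Treatment, day, mixing and the libraries' properties cannot be told apart in any of these settings.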

Other observations

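The list of glycolysis and hypoxia genes was not described as a whole above. In CD8 T cells Hilpda, a lipid droplet protein that hypoxia induces, stood at 219 CPM in anti-PD1 KO and 77.2 CPM in untreated KO, and Pfkfb3, a driver of glycolysis, at 55.4 and 19.1 CPM. In CD4 T cells Hilpda had 376 and 108 CPM, and in monocytes and macrophages 235 and 94.4 CPM. The whole list of glycolysis and hypoxia stood near the 14.1% and 9.88% of all genes called higher in these lineages: 4 of 26 measured genes were called higher and none lower in CD8 T cells, with a median of -0.11, and 3 of 28 were higher and 1 lower in monocytes and macrophages, with a median of 0.25.

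Genes of cell division in monocytes and macrophages did not share the direction seen in T cells. Of 27 measured genes 7 were called higher and 1 lower in anti-PD1 KO, with a median of 0.20, where 9.88% of all genes were called higher and 13.9% lower. Birc5, a protein of the mitotic spindle, had 111 UMIs in anti-PD1 KO and 7 in untreated KO, and Ccnb2, a mitotic cyclin, 56 and 4. Kif23, a motor protein of cell separation, had 48 and 75 UMIs, 3.63 and 15.1 CPM.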
